A study of Mus musculus with 22 samples.

Results

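Neutrophil genes were followed across mouse pancreatic tumours: S100a8, S100a9, Ly6g, Ngp, Camp, Ltf, Lcn2, Mmp8 and Retnlg. They are granule, cytosolic and surface genes of early and late neutrophils, listed by name, but the list was chosen with earlier results of these data known. All 9 were among the 17966 genes measured. All 9 were also among the 14278 genes that passed the filter on low values, which asked for a normalized count of at least 10 in at least 5 tumours. Ly6g had no reads in any untreated tumour, and Ngp and Camp each reached a count of 10 in 2 untreated tumours, so these genes passed the filter through treated tumours and a difference from untreated tumours was partly built in.

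The tumours grew in the pancreas from PDA.7940B cells, a polyclonal mouse line of pancreatic ductal adenocarcinoma derived from KPC tumours, and all samples carry the genotype label WT. Beta-glucan is a fungal cell wall polysaccharide recognised by the myeloid receptor Dectin-1; hosts of 6 tumours received it alone, as a single intravenous dose of 1.2 mg. Anti-CD40 (clone FGK45, an antibody that activates the receptor CD40 of antigen-presenting cells) was given alone in another group of 6 as a single intraperitoneal dose of 0.1 mg. A combination group of 5 received both agents at doses that the labels do not state, and 5 tumours were untreated, with no vehicle or isotype control among the groups. Treated tumours were taken 10 days after treatment. RNA came from sections of fixed tumour tissue and was sequenced from its 3' ends, and each value is a normalized count, a read count divided by a size factor of its tumour. Whether every tumour had its own mouse is not in the labels, so the p-values rest on the spread among these samples, which may be technical in part.

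Neutrophils fill their granules in sequence while they mature in the bone marrow. Genes of primary granules, such as Mpo and Elane, are transcribed earliest, genes of secondary granules, such as Ngp, Camp, Ltf and Lcn2, follow, and tertiary granule, surface and signalling genes come last. Many granule genes are largely silent once a neutrophil has left the marrow, whereas S100a8 and S100a9 remain abundant. In mouse tumours Ly6g is the antigen most often used to mark neutrophils, and Ltf and Lcn2 are also made by epithelial cells.

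The members lie on 5 chromosomes of the mouse genome (GRCm38, mm10; GENCODE M21). S100a8 (chr3:90668978-90670035, plus strand) and S100a9 (chr3:90692632-90695721, minus strand) are neighbours with 22.6 kb between them. Camp (chr9:109847379-109849617, minus strand), Ngp (chr9:110419747-110423012, plus strand) and Ltf (chr9:111019271-111042767, plus strand) follow each other on chromosome 9, with 570.1 kb between Camp and Ngp and 596.3 kb between Ngp and Ltf. Mmp8 (chr9:7558456-7568485, plus strand) lies far from them on the same chromosome. Ly6g is at chr15:75155240-75159126 on the plus strand, Retnlg at chr16:48872621-48874496 on the plus strand and Lcn2 at chr2:32384633-32388252 on the minus strand. In these tumours S100a8 and S100a9 moved together, and so to a lesser degree did Ngp and Camp, while Ngp and Ltf did not. The bases just upstream of 4 genes, the S100 pair and the much more distant pair Ngp and Ltf, are shown for this contrast. They are RefSeq sequences of GRCm38.p6, read 5' to 3' on the gene's own strand and ending at the annotated gene start, at chr3:90668821-90668977 for S100a8, chr3:90695722-90695971 for S100a9, chr9:110419558-110419746 for Ngp and chr9:111019042-111019270 for Ltf. Capitals mark matches, on either strand, to TTNCNNAA, a simple form of the site of C/EBP factors, which drive granule genes, or to GAGGAA, a core of the PU.1 site.
S100a8: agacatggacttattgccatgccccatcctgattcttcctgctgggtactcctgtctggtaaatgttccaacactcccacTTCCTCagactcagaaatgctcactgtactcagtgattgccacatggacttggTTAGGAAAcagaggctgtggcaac
S100a9: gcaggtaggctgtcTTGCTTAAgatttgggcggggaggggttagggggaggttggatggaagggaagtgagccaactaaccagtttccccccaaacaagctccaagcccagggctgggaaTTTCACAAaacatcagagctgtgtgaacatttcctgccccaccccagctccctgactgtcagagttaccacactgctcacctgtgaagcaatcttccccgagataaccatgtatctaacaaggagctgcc
Ngp: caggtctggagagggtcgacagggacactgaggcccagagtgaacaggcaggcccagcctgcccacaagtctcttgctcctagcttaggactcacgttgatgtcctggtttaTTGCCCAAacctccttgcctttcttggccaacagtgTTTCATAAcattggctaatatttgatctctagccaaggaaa
Ltf: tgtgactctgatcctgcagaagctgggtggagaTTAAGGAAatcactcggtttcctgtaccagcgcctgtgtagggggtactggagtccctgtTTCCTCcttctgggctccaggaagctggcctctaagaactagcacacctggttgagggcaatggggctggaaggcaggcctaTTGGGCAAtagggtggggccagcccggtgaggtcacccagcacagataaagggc
Within the 250 bases before the RefSeq start, a window that runs past some of the stretches shown, 8 of 9 members held a C/EBP match (Camp did not), against 36.85% of 32851 mouse promoters. A PU.1 match was found in 5 of 9 members, against 23.25% of promoters, and no match of one kind overlapped one of the other. The matches are letters only and no binding was measured.

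Recovered read totals were 7.13 to 8.74 M in beta-glucan tumours, 6.33 to 21.2 M in anti-CD40 tumours, 12.2 to 18.8 M in combination tumours and 7.38 to 9.34 M in untreated tumours. Digestive enzyme genes of normal acinar cells (27 genes) took a median of 2.63% of reads with beta-glucan (range 0.564 to 17.35%), 30.1% with anti-CD40 (0.628 to 66.0%), 28.4% with the combination (0.591 to 35.4%) and 3.02% in untreated tumours (0.0383 to 17.3%). Markers of tumour epithelium were lower after every treatment, whereas the median acinar share was higher only with anti-CD40 and with the combination. The summed level of 11 epithelial genes had a median of 21245 with beta-glucan, 17925 with anti-CD40, 4951 with the combination and 45355 in untreated tumours, with every treated tumour below every untreated one. In such bulk tissue fewer cells of a type and less RNA per cell cannot be told apart.

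Mean log2 levels of 8 of the 9 genes were above untreated after each treatment and highest after both agents, except that with values rescaled to equal totals Lcn2 (log2 -0.24) and Retnlg (-0.13) were below untreated with anti-CD40, and Lcn2 was lower with both agents than with beta-glucan (-0.38, and -0.069 with equal totals outside acinar genes). With the combination, 7 of 9 members rose and none fell, at a median log2 fold change of 4.21 over the members against -0.01 over all genes; 18.2% of all genes tested rose and 15.8% fell. With beta-glucan 5 of 9 rose and none fell (median 2.55, against 0.02 over all genes), where 5.09% of all genes rose and 1.32% fell. With anti-CD40 4 of 9 rose and 1, Ltf, fell (median 2.06, against 0.00 over all genes), where 11% of all genes rose and 7.56% fell. These calls are from limma on log2(value + 1) with Benjamini-Hochberg adjustment over 14278 genes at a threshold of 0.05. Among the risers, Ly6g, Ngp and Camp (combination), Ly6g (beta-glucan) and Ly6g and Ngp (anti-CD40) passed the filter through treated tumours. Their differences from untreated tumours, also in the overlaps below, were partly built in. The other risers were S100a8, S100a9, Lcn2 and Mmp8 with the combination and with beta-glucan, and S100a8 and S100a9 with anti-CD40. The 3 comparisons share the 5 untreated tumours. In 8 of 9 members every combination tumour lay above every untreated tumour (11.7% of all genes did), in 4 of 9 every beta-glucan tumour did (3.98%), and in 1 of 9, Ngp, every anti-CD40 tumour did (5.03%).

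**Figure D1:**
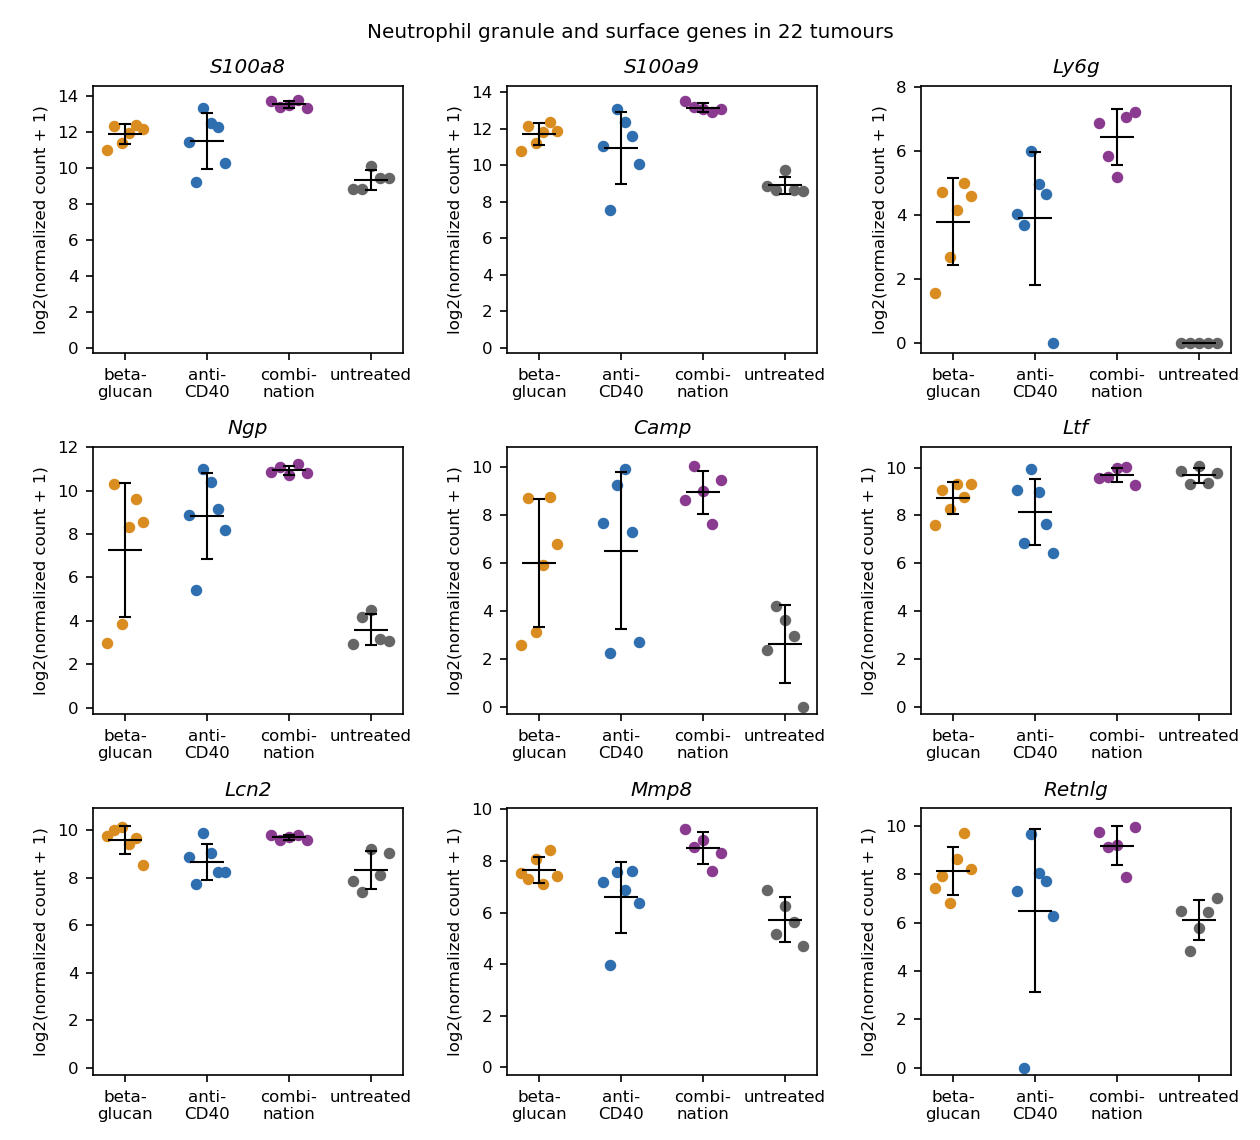
Normalized counts of the 9 members on the log2(value + 1) scale in each of 22 tumours, with 1 point per tumour in order of its number, the group mean as a line and the SD as a bar. S100a8 and S100a9 lie highest in the combination, Ngp and Camp spread widely within the beta-glucan and anti-CD40 groups, and Ltf is as high in untreated as in combination tumours.

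S100a8 and S100a9 encode the subunits of calprotectin, the calcium- and zinc-binding protein that makes up much of the neutrophil cytosol and is also made by monocytes. S100a8 stood at 2066, 5235, 2668, 3923, 5461 and 4643 normalized counts in beta-glucan tumours 1 to 6 and at 2812, 585, 10414, 5778, 5021 and 1233 in anti-CD40 tumours 1 to 6. It stood at 13327, 10756, 11594, 13919 and 10332 in the combination tumours, against 456, 449, 1095, 703 and 694 in the untreated tumours. Every beta-glucan and combination tumour was above every untreated tumour, and anti-CD40 tumour 2 alone lay within the untreated range. S100a8 was 5.86-fold higher with beta-glucan (log2 2.55 ± 0.51 SE, limma adjusted p = 0.00338), 4.53-fold higher with anti-CD40 (2.18 ± 0.51, adjusted p = 0.00453) and 18.5-fold higher with the combination (4.21 ± 0.53, adjusted p = 3.99e-06). For S100a9 the lowest, median and highest counts were 1772, 3707 and 5341 with beta-glucan, and 187, 2624 and 8777 with anti-CD40. The 5 combination tumours had 12025, 9370, 8751, 7771 and 8757, against 462, 404, 848, 400 and 386 in untreated tumours. Only anti-CD40 tumour 2 failed to exceed the untreated range, and it lay below it. The S100a9 differences were 7.02-fold with beta-glucan (log2 2.81 ± 0.64, adjusted p = 0.0103), 4.16-fold with anti-CD40 (2.06 ± 0.64, adjusted p = 0.0291) and 19.4-fold with the combination (4.28 ± 0.67, adjusted p = 5.3e-05). Its anti-CD40 call was lost in 7 of 11 fits that left out 1 tumour (untreated 1, 2, 5 or 6, or anti-CD40 3, 4 or 5; adjusted p 0.0557 to 0.0643, log2 1.63 to 2.04). Without anti-CD40 tumour 2 the log2 difference was 2.73 for S100a9 (adjusted p = 7.63e-05).

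Ly6g, a GPI-anchored antigen at the surface of mature mouse neutrophils, had few reads. Beta-glucan tumours 1 to 6 had 1.99, 25.5, 5.51, 17.1, 30.8 and 23.0 normalized counts and anti-CD40 tumours 1 to 6 had 15.6, 12.1, 63.4, 30.6, 24.4 and 0. The combination tumours had 116, 56.0, 35.8, 133 and 149, against 0 in each of the 5 untreated tumours. Ly6g was thus detected in every beta-glucan and combination tumour and in 5 of 6 anti-CD40 tumours, and the combination tumours lay above every beta-glucan tumour. Set against a floor of 3 reads over the untreated group (a normalized count of 0.580), the group mean was at least 29.8-fold higher with beta-glucan, at least 41.95-fold higher with anti-CD40 and at least 168.9-fold higher with the combination. These bounds cover counting error only. The limma adjusted p was 0.00482 with beta-glucan, 0.00143 with anti-CD40 and 3.54e-06 with the combination, and no call was lost when single tumours were left out. Since Ly6g passed the filter through treated tumours only, these calls were partly built in and are a description. In the fit of beta-glucan and untreated tumours alone it did not pass the filter. Without anti-CD40 tumour 6, where Ly6g had no reads, the fitted log2 difference for anti-CD40 was 4.68, against 3.90 with all tumours.

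The secondary granule genes did not move as 1 block. Ngp encodes neutrophilic granule protein, a cystatin-related protein, and Camp encodes the cathelicidin precursor of an antimicrobial peptide. Ngp stood at 6.96, 1267, 13.2, 315, 794 and 371 normalized counts in beta-glucan tumours 1 to 6. It stood at 468, 41.9, 2053, 1373, 566 and 288 in anti-CD40 tumours 1 to 6 and at 1885, 2168, 1702, 2383 and 1778 in combination tumours, against 6.66, 17.3, 21.9, 8.02 and 7.51 in untreated tumours. Beta-glucan tumours 1 and 3 stayed within the untreated range and the other 4 were far above it, while every anti-CD40 and combination tumour exceeded every untreated one. Ngp was 164-fold higher with the combination (log2 7.36 ± 1.21, adjusted p = 0.000112), the highest fold among the 9 members on this scale. It was 38.3-fold higher with anti-CD40 (5.26 ± 1.16, adjusted p = 0.00351). With beta-glucan the log2 difference of 3.69 ± 1.16 did not pass (adjusted p = 0.0663); it passed without beta-glucan tumour 1 (4.54, adjusted p = 0.0111) or tumour 3 (4.37, adjusted p = 0.0277). Without anti-CD40 tumour 2 the anti-CD40 difference was 5.94.

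Camp had 4.97, 421, 7.72, 59.9, 431 and 111 normalized counts in beta-glucan tumours 1 to 6 and 202, 3.81, 620, 962, 157 and 5.43 in anti-CD40 tumours 1 to 6. The combination tumours had 396, 1056, 508, 198 and 709, against 4.16, 17.3, 11.4, 6.87 and 0 in untreated tumours. The same beta-glucan tumours as for Ngp, 1 and 3, and anti-CD40 tumours 2 and 6 lay within the untreated range. Camp rose 80.0-fold with the combination (log2 6.32 ± 1.45, adjusted p = 0.00213), or by 5.66 on the log2 scale without untreated tumour 6, which had no Camp reads. The log2 differences of 3.35 ± 1.39 with beta-glucan (adjusted p = 0.182) and 3.88 ± 1.39 with anti-CD40 (adjusted p = 0.0572) did not pass. Camp passed with anti-CD40 when anti-CD40 tumour 2 (4.73, adjusted p = 0.0165) or tumour 6 (4.65, adjusted p = 0.0229) was left out.

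Ltf encodes lactoferrin, an iron-binding protein of secondary granules. It did not follow Ngp and Camp. The lowest, median and highest normalized counts were 194, 478 and 641 with beta-glucan and 84.2, 354 and 970 with anti-CD40. The combination tumours had 751, 775, 1007, 1043 and 622, against 924, 629, 1065, 656 and 884 in untreated tumours. Untreated and combination tumours overlapped throughout, while 4 of 6 beta-glucan and 5 of 6 anti-CD40 tumours lay below every untreated tumour. Ltf fell with anti-CD40 (log2 -1.53 ± 0.47, 2.89-fold lower, adjusted p = 0.0259). The differences were -0.95 ± 0.47 with beta-glucan (adjusted p = 0.275) and 0.02 ± 0.49 with the combination (95% interval -1.004 to 1.04, adjusted p = 0.984). The anti-CD40 call was lost without untreated tumour 1 or 3 or without anti-CD40 tumour 2, 5 or 6 (log2 -1.48 to -1.18, adjusted p 0.0564 to 0.0596), and in edgeR on the recovered reads (-1.06, adjusted p = 0.0978). Of 11 epithelial markers 8 fell with anti-CD40, where Ltf fell, and 10 with the combination, where Ltf stood at 0.02. Among all genes 7.56% and 15.8% fell. The part of the epithelial markers in the Ltf values was not tested.

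Lcn2 encodes lipocalin 2, a secondary granule protein that binds bacterial siderophores. Its lowest, median and highest normalized counts were 368, 834 and 1114 with beta-glucan and 210, 384 and 932 with anti-CD40. The combination tumours had 895, 774, 844, 878 and 768, against 230, 167, 590, 276 and 527 in untreated tumours. The combination tumours agreed closely and all exceeded the untreated ones, as did 5 of 6 beta-glucan tumours but 1 of 6 anti-CD40 tumours. Lcn2 rose 2.39-fold with beta-glucan (log2 1.26 ± 0.35, adjusted p = 0.0292) and 2.60-fold with the combination (1.38 ± 0.36, adjusted p = 0.00478). With anti-CD40 the difference was 0.34 ± 0.35 (adjusted p = 0.549). The beta-glucan call was lost in 7 of 11 fits that left out 1 tumour (untreated 1, 2 or 5, or beta-glucan 1, 2, 3 or 5; adjusted p 0.0560 to 0.0979, log2 1.03 to 1.25). The combination call was lost with values rescaled to equal totals (0.92, adjusted p = 0.148) and with the acinar level as a covariate (1.01, adjusted p = 0.0633).

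The remaining members were Mmp8 and Retnlg. Mmp8 encodes neutrophil collagenase. It stood at a lowest, median and highest normalized count of 136, 178 and 340 with beta-glucan and 14.6, 130 and 193 with anti-CD40. The combination tumours had 610, 368, 454, 195 and 315, against 116, 35.4, 75.5, 48.1 and 25.0 in untreated tumours. Every beta-glucan and combination tumour exceeded the untreated range, whereas anti-CD40 tumours lay above, within and below it. Mmp8 rose 3.77-fold with beta-glucan (log2 1.92 ± 0.51, adjusted p = 0.0229) and 6.86-fold with the combination (2.78 ± 0.53, adjusted p = 0.000275), and its difference with anti-CD40 was 0.87 ± 0.51 (adjusted p = 0.254). The beta-glucan call was lost without untreated tumour 2, 5 or 6 or beta-glucan tumour 3 or 5 (adjusted p 0.0541 to 0.0679, log2 1.66 to 1.89). Without anti-CD40 tumour 2 the anti-CD40 difference of Mmp8 passed (1.39, adjusted p = 0.0114).

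Retnlg, a resistin-like secreted protein of mouse neutrophils, had 175, 246, 114, 401, 829.2 and 298 normalized counts in beta-glucan tumours 1 to 6. It had 156, 0, 821, 263, 211 and 76.1 in anti-CD40 tumours 1 to 6 and 858, 562, 593, 234 and 988 in combination tumours, against 88.2, 27.6, 53.5, 85.9 and 130 in untreated tumours. All combination tumours and 5 of 6 beta-glucan tumours were above the untreated range, and anti-CD40 tumours again spread to both sides of it. With all 22 tumours fitted no Retnlg difference from untreated passed: the log2 values were 2.02 ± 1.14 with beta-glucan (adjusted p = 0.36), 0.39 ± 1.14 with anti-CD40 (0.854) and 3.07 ± 1.19 with the combination (0.0522). Anti-CD40 tumour 2 had no Retnlg reads. Without that tumour the anti-CD40 difference was 1.69 (adjusted p = 0.0432), and without combination tumour 4 the combination difference was 3.40 (adjusted p = 0.0492). The combination difference passed in 6 of 21 alternatives in all, among them a pseudocount of 8 (adjusted p = 0.00991), edgeR (0.00679), only the 2 groups fitted (0.000266) and the fit without the 5 tumours over 30% acinar (0.000149). The beta-glucan difference passed in 2 of 22, with only the 2 groups fitted (adjusted p = 0.0169) and without those 5 tumours (0.0062), and the anti-CD40 difference also passed without them (0.0387).

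**Figure D2:**
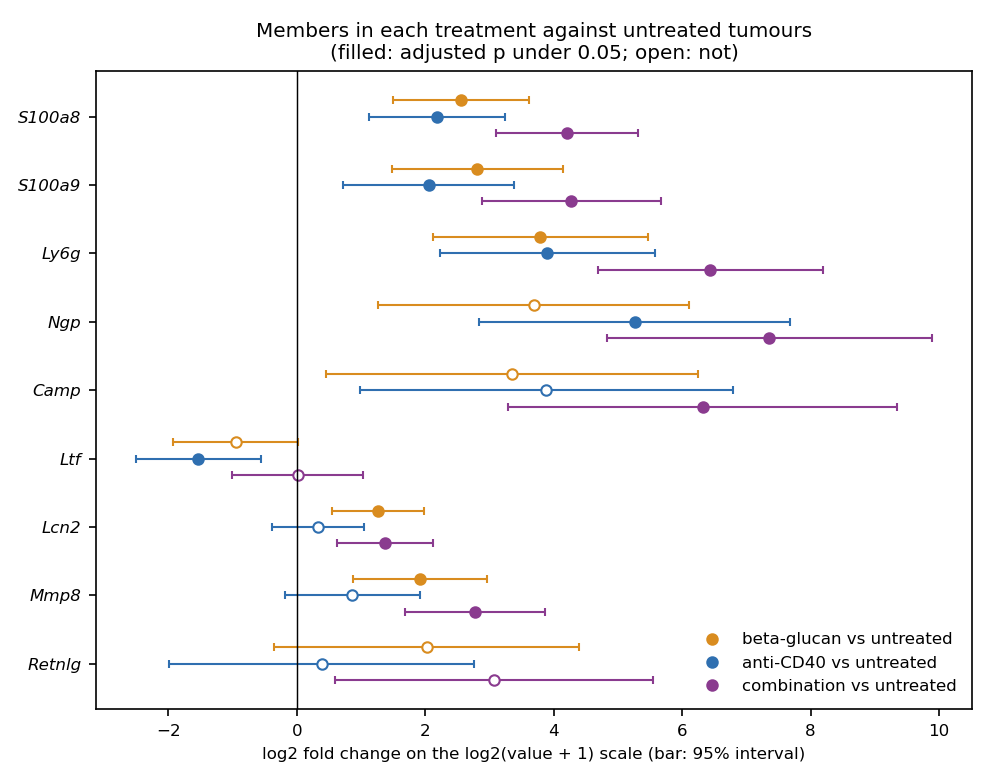
Log2 fold changes of the members in each treatment against untreated tumours, with 95% intervals, on the log2(value + 1) scale. Filled points have an adjusted p under 0.05. The combination lies furthest to the right for every member, at only 0.02 for Ltf, and the anti-CD40 point of Ltf at -1.53 is the only filled one left of 0.

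The count of risen members depended on single tumours in the single-agent groups. With anti-CD40 it was 7 of 9 without anti-CD40 tumour 2, and 7 of 9 also without the 5 tumours in which acinar reads exceeded 30% (anti-CD40 2, 3 and 6, combination 4 and 5), a setting chosen after the data were seen. With beta-glucan it was 3 of 9 without untreated tumour 2, untreated tumour 5 or beta-glucan tumour 5. With the combination it stayed at 7 or 8 of 9 whichever tumour was left out. With the acinar level as a covariate 6 of 9 rose with the combination and 4 of 9 with anti-CD40, and the part of the lower epithelial level in these rises was not tested. Anti-CD40 tumour 2 was the lowest of its group for 7 of 9 members and anti-CD40 tumour 3 the highest for 7 of 9; acinar genes took 33.6% of reads in tumour 2 and 32.1% in tumour 3. Beta-glucan tumour 1 was the lowest of its group for 6 of 9 members and tumour 5 the highest for 6 of 9.

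Adding anti-CD40 to beta-glucan raised 3 members. In the combination against beta-glucan alone, S100a8 (3.16-fold, log2 1.66 ± 0.51, adjusted p = 0.0324), Ly6g (2.65 ± 0.81, adjusted p = 0.0296) and Ngp (12.8-fold, 3.67 ± 1.16, adjusted p = 0.0394) rose and none fell; of all genes 6.49% rose and 7.61% fell. The members' median log2 difference was 1.46, against 0.01 over all genes. Every combination tumour was above every beta-glucan tumour for S100a8, S100a9, Ly6g and Ngp, 4 of 9 members, which held for 5.68% of all genes. S100a9 differed by 1.46 ± 0.64 (adjusted p = 0.134), Camp by 2.97 ± 1.39 (0.165), Ltf by 0.97 ± 0.47 (0.18), Mmp8 by 0.86 ± 0.51 (0.276), Retnlg by 1.05 ± 1.14 (0.589) and Lcn2 by 0.12 ± 0.35 (0.858), the p in brackets being adjusted. The 3 calls were near the threshold. None of the 9 passed without beta-glucan tumour 1 or 3 or combination tumour 1, 4 or 5, although the log2 differences then stayed between 1.49 and 1.71 for S100a8, 2.20 and 2.54 for Ly6g and 2.82 and 3.71 for Ngp. Leaving out combination tumour 2 left 1 call (Ly6g), and leaving out beta-glucan tumour 4 or combination tumour 3 left 2. Without beta-glucan tumour 2 the Ngp difference was 4.28.

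Adding beta-glucan to anti-CD40 gave differences of like size that seldom passed. In the combination against anti-CD40 alone, S100a8 rose 4.08-fold (log2 2.03 ± 0.51, adjusted p = 0.0472) and was the only one of the 9 called; 0.658% of all genes rose and 0.826% fell. All 9 log2 differences were above 0, from 1.04 for Lcn2 to 2.68 for Retnlg, with a median of 2.10 against 0.01 over all genes. Mmp8 stood at 1.91 ± 0.51 (adjusted p = 0.0551), S100a9 at 2.22 ± 0.64 (0.0826), Ltf at 1.55 ± 0.47 (0.0974), Ly6g at 2.54 ± 0.81 (0.109) and Lcn2 at 1.04 ± 0.35 (0.126). Ngp was at 2.10 ± 1.16 (0.404) and Camp at 2.44 ± 1.39 (0.424). Mmp8 was the only member with every combination tumour above every anti-CD40 tumour (0.777% of all genes). At an unadjusted p under 0.05, 7 of 9 were higher, but the share of all genes at that looser threshold is not given here. In edgeR 0 of 9 were called. The S100a8 call was lost in 9 of 11 fits that left out 1 tumour (any combination tumour, or anti-CD40 1, 2, 4 or 6; adjusted p 0.0606 to 0.101, log2 1.57 to 2.23) and in edgeR (1.47, adjusted p = 0.11); without anti-CD40 tumour 5, S100a8, S100a9 and Mmp8 passed.

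Between the single agents no member passed in either direction. In anti-CD40 against beta-glucan tumours the limma fit called 0 of 9 and edgeR also 0 of 9, while 1.61% of all genes were higher and 0.49% lower. In 0 of 9 members was every anti-CD40 tumour above every beta-glucan tumour (1.44% of all genes). At an unadjusted p under 0.05, 2 members, Lcn2 (log2 -0.92 ± 0.33, 95% interval -1.60 to -0.24, adjusted p = 0.177) and Mmp8 (-1.05 ± 0.48, -2.05 to -0.05, adjusted p = 0.317), were lower with anti-CD40. The share of all genes at that looser threshold is not given here. The intervals were wide for Ngp (-0.74 to 3.88), Camp (-2.23 to 3.30), Retnlg (-3.90 to 0.63) and Ly6g (-1.49 to 1.70), and narrower for S100a8 (-1.38 to 0.64), S100a9 (-2.03 to 0.51) and Ltf (-1.51 to 0.35).

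Ordered by the mean of the log2 values, the combination came highest for every member and untreated tumours lowest for every member except Ltf. Anti-CD40 stood above beta-glucan for Ly6g, Ngp and Camp, and beta-glucan above anti-CD40 for S100a8, S100a9, Lcn2, Mmp8 and Retnlg, and the single-agent groups overlapped for each of them. With equal totals Ly6g was lower with anti-CD40 than with beta-glucan (log2 -0.18). Ltf had the order combination, untreated, beta-glucan, anti-CD40, with untreated above the combination under equal totals (-0.44 for the combination against untreated) and under equal totals outside acinar genes (-0.11).

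The joint effect was also set against the sum of the single effects on the log2 scale. This interaction was called for 0 of 9 members by limma and 0 of 9 by edgeR, and of all genes 0% were higher and 0.021% lower. Ltf was the 1 member with an unadjusted p under 0.05, a threshold at which the share of all genes is not given here. Its log2 interaction was 2.50 ± 0.67 (95% interval 1.12 to 3.88, limma unadjusted p = 0.00111, adjusted p = 0.21). Its mean log2 level differed from untreated by -0.95 with beta-glucan, -1.53 with anti-CD40 and 0.02 with both. For S100a8 the interaction was -0.52 ± 0.72 (-2.02 to 0.98), for S100a9 -0.59 ± 0.90 (-2.48 to 1.29) and for Ly6g -1.26 ± 1.15 (-3.62 to 1.11). The Ly6g value, with 0 in every untreated tumour, ran from -5.28 to 0.34 over the alternatives, so its interval is no firm bound. The Ngp interval ran from -5.01 to 1.84, which leaves large departures from additivity undetectable in these tumours.

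The members did not keep a fixed proportion to each other. Counts over S100a8 are compared here between tumours only, as a description without a test. The S100a9 count was 0.320 to 1.01 times the S100a8 count over the 22 tumours, with a median of 0.852, and anti-CD40 tumour 2 was the lowest. The Ngp ratio had a lowest, median and highest value of 0.00337, 0.0801 and 0.242 with beta-glucan, 0.0717, 0.182 and 0.238 with anti-CD40, 0.141, 0.171 and 0.202 with the combination and 0.0108, 0.0146 and 0.0385 in untreated tumours. Anti-CD40 and combination tumours thus all had more Ngp per S100a8 than any untreated tumour, whereas beta-glucan tumours 1 and 3 had less than any. For Ltf the ratio was 0.0786 to 0.164 with beta-glucan, 0.0396 to 0.193 with anti-CD40, 0.0563 to 0.0869 with the combination and 0.933 to 2.03 in untreated tumours. The Lcn2 ratio was 0.0793 to 0.420 with beta-glucan, 0.0600 to 0.358 with anti-CD40, 0.0631 to 0.0744 with the combination and 0.371 to 0.760 in untreated tumours. Untreated tumours therefore carried far more Ltf per S100a8 than any treated tumour, and the combination tumours were the most alike in both ratios.

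**Figure D3:**
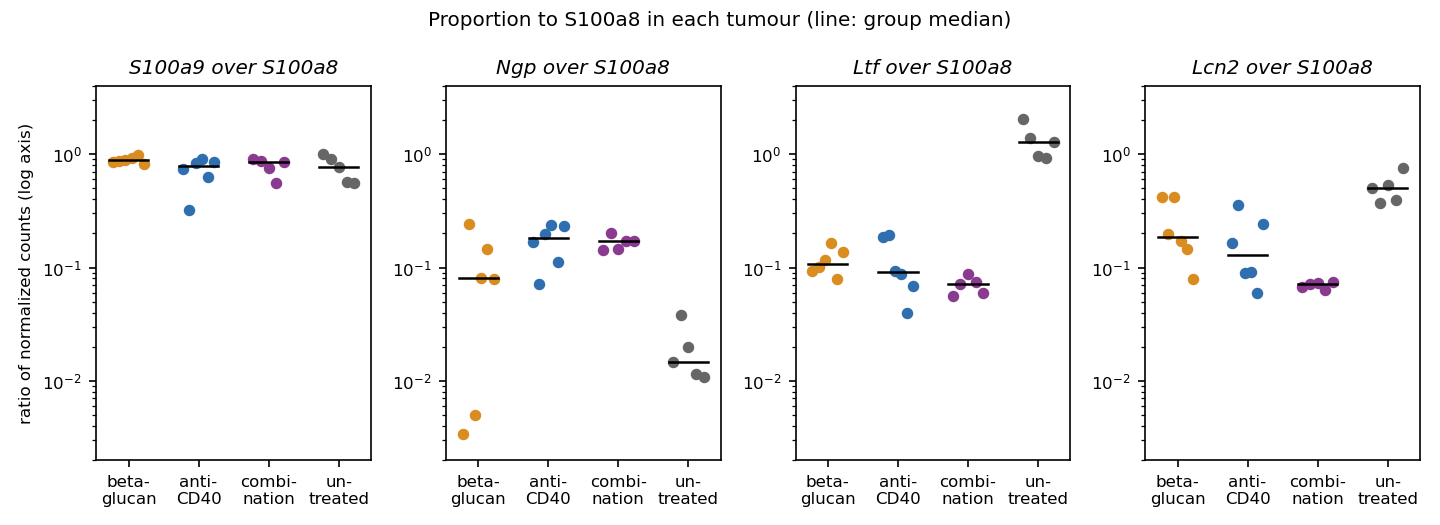
Counts of S100a9, Ngp, Ltf and Lcn2 divided by the count of S100a8 in the same tumour, on a log axis, with 1 point per tumour and the group median as a line. The S100a9 ratio stays between 0.320 and 1.01, beta-glucan tumours 1 and 3 have the lowest Ngp ratios, and every untreated tumour has a higher Ltf ratio than every treated tumour.

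Most genes of the earliest granule stage had few reads in untreated tumours. In a list of 8 primary granule and precursor genes (Mpo, Elane, Prtn3, Ctsg, Ms4a3, Prss57, Fcnb and Chil3), 5 reached a count of 10 in no untreated tumour, Mpo did in 1 and Prtn3 in 2, and Chil3 did in all 5. All but Chil3 thus passed the filter through treated tumours, so that a difference from untreated tumours was partly built in and the counts called are only a description: 8 of 8 higher with the combination, 2 of 8 with beta-glucan and 4 of 8 with anti-CD40. Among all genes 18.2%, 5.09% and 11% were higher, in that order. In the combination, Fcnb, a ficolin, was higher by 5.92 ± 0.86 (adjusted p = 1.13e-05) and the granule proteases Elane by 5.73 ± 1.03 (adjusted p = 0.000141) and Ctsg by 5.52 ± 0.93 (adjusted p = 6.78e-05). Against beta-glucan the combination had 2 of 8 higher, Ctsg and Ms4a3 (6.49% of all genes), and against anti-CD40 none of 8 (0.658%). Elane, neutrophil elastase, had 0, 104, 7.72, 20.9, 51.6 and 49.8 normalized counts in beta-glucan tumours 1 to 6, and Mpo, myeloperoxidase, had 0, 310, 3.31, 51.3, 74.5 and 46.0. Untreated tumours had at most 8.63 for Elane and 13.2 for Mpo. Beta-glucan tumours 1 and 3 therefore stayed at untreated levels for Ngp, Camp, Elane and Mpo, although S100a8 in both was above every untreated tumour. Their depths of 7.74 and 8.52 M reads lay within the range of the group, and acinar genes took 2.32% and 17.35% of their reads.

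Between the single agents, genes of mature neutrophils passed where no member did. Of 15 surface and signalling genes listed, 14 were tested (Cxcr1 was below the filter). Beta-glucan raised 11 and lowered none (median log2 2.64), anti-CD40 raised 5 and lowered 1 (1.01), and the combination raised 12 and lowered none (3.11). Csf3r reached a count of 10 in 1 untreated tumour, Fpr1 in 3, and Clec4e and Ccrl2 in 4 each. Differences of these genes from untreated tumours were partly built in. Among all genes 5.09% rose and 1.32% fell with beta-glucan, 11% and 7.56% with anti-CD40, and 18.2% and 15.8% with the combination. In anti-CD40 against beta-glucan tumours, where 0.49% of all genes were lower and 1.61% higher, 4 of 14 were lower and none higher. They were Cxcr2, the receptor that draws neutrophils along CXC chemokines (log2 -3.68 ± 0.60, adjusted p = 0.00141), Il1b, interleukin 1 beta, which macrophages also make (-2.12 ± 0.37, adjusted p = 0.00235), Il1r2, a decoy receptor for it (-1.53 ± 0.35, adjusted p = 0.0215), and Trem1, an activating receptor (-2.33 ± 0.55, adjusted p = 0.0238). Cxcr2 had a lowest, median and highest normalized count of 0, 12.2 and 40.5 in anti-CD40 tumours and 56.5, 145 and 197 in beta-glucan tumours. The combination tumours had 79.5 to 146 and the untreated tumours 17.5 to 53.5. Beta-glucan tumours 1 and 3 had 179.9 and 197 for Cxcr2, among the highest of the series, while Ngp and Elane there were at untreated levels. The combination had 6 of 14 higher than anti-CD40, with Cxcr2 at 3.58 ± 0.63 (adjusted p = 0.00704). Among all genes 0.658% were higher there.

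**Figure D4:**
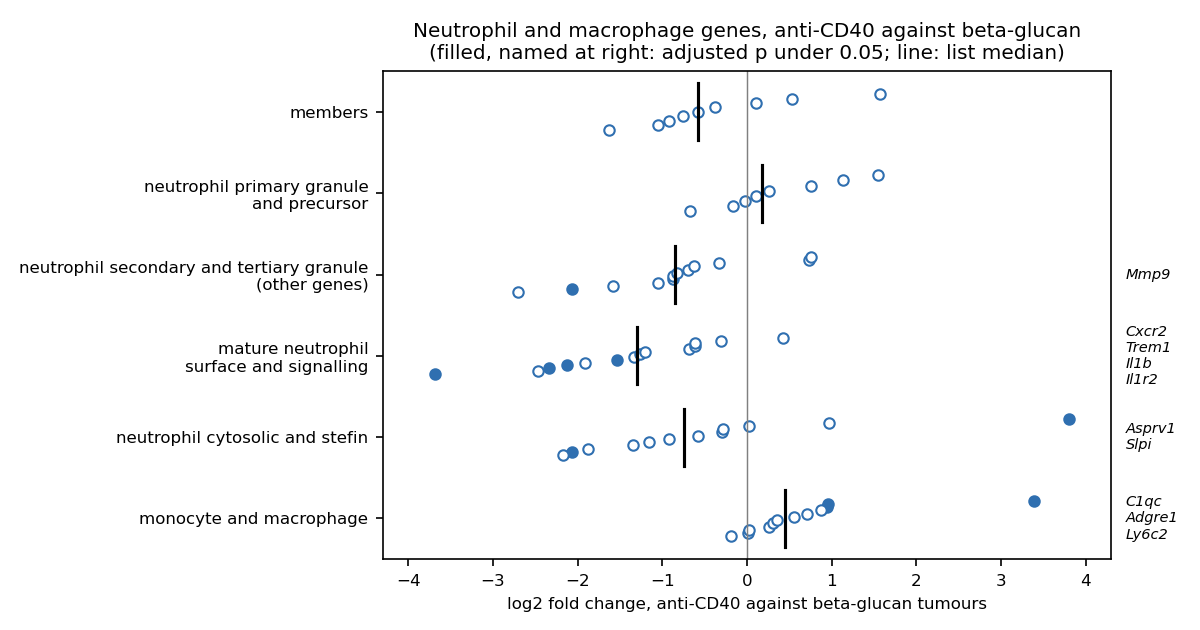
Log2 fold changes in anti-CD40 against beta-glucan tumours for the members and for lists of neutrophil and macrophage genes, with 1 point per gene and the list median as a line. No member is filled. The 4 filled mature neutrophil genes, Mmp9 and Asprv1 lie to the left of 0, and Slpi and the filled macrophage genes lie to the right.

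A further list held 12 secondary granule, tertiary granule and other neutrophil genes, so its counts are not those of granule genes alone. Of the 12, 8 rose with beta-glucan (median log2 1.84), 4 rose and 1 fell with anti-CD40 (0.95), and 8 rose and 1 fell with the combination (2.33). In no untreated tumour did 3 of the 12 (Cd177, Padi4 and Itgb2l) reach a count of 10, while Olfm4 did in 2 and Chil1 in 3. Differences of these genes from untreated tumours were partly built in. Among all genes 5.09% rose and 1.32% fell with beta-glucan, 11% and 7.56% with anti-CD40, and 18.2% and 15.8% with the combination. Mmp9, the gelatinase of tertiary granules, rose by 3.15 ± 0.37 with beta-glucan (adjusted p = 1.77e-05) and by 2.66 ± 0.39 with the combination (adjusted p = 1.62e-05). It was lower by 2.07 ± 0.36 on the log2 scale in anti-CD40 than in beta-glucan tumours (log2 -2.07, adjusted p = 0.00235), the 1 call of the list there. Among all genes 0.49% were lower and 1.61% higher in that comparison. Pglyrp1, a peptidoglycan recognition protein, fell with anti-CD40 (-1.51 ± 0.36, adjusted p = 0.00461). The combination had 1 of 12, the lysozyme gene Lyz2, higher than beta-glucan (6.49% of all genes) and 3 of 12 higher than anti-CD40 (0.658%). Of 12 tested cytosolic and stefin genes, with Stfa2 below the filter, 6 rose with beta-glucan (median 1.62), 3 with anti-CD40 (0.40) and 8 with the combination (2.64). Stfa1, Stfa3 and BC100530 among them also reached 10 in no untreated tumour, Stfa2l1 and Ifitm6 did in 2 and Asprv1 in 4. Differences of these genes from untreated tumours were partly built in. Slpi, an inhibitor of elastase that epithelial cells and macrophages also make, rose by 5.83 ± 0.54 with anti-CD40 (adjusted p = 4.1e-07) and stood 3.80 ± 0.52 above beta-glucan (adjusted p = 0.000492). Asprv1, a protease of skin and neutrophils, was 2.07 ± 0.43 lower than with beta-glucan (log2 -2.07, adjusted p = 0.01).

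Markers of other cells moved beside the neutrophil genes. Among all genes 5.09% rose and 1.32% fell with beta-glucan, 11% and 7.56% with anti-CD40, and 18.2% and 15.8% with the combination. Of 12 monocyte and macrophage genes, which share S100a8 and S100a9 expression in their monocyte stage, 4 rose with beta-glucan (median log2 0.88), 9 with anti-CD40 (1.28) and 12 with the combination (2.01). Ly6c2, a monocyte antigen, stood 3.39 ± 0.44 higher in anti-CD40 than in beta-glucan tumours (adjusted p = 0.000224). The summed level of that list ranged over 46708 to 94889 normalized counts with beta-glucan, 74694 to 179734 with anti-CD40, 96971 to 222750 with the combination and 28912 to 119179 in untreated tumours. Its part in the S100a8 and S100a9 values was not tested. Of 11 epithelial genes none rose, and 2 fell with beta-glucan (median -1.06), 8 with anti-CD40 (-1.67) and 10 with the combination (-3.03). Eosinophil genes, with 5 of 8 tested and Epx, Ear1 and Ear6 below the filter, had 1 riser with each treatment, Siglecf with beta-glucan and Prg2 with anti-CD40 and the combination, and 1 fall, Il5ra with the combination. Siglecf, which some tumour neutrophils also carry, rose by 3.10 ± 0.71 with beta-glucan (adjusted p = 0.00792). Siglecf and Prg2 each reached a count of 10 in 2 untreated tumours and passed the filter through treated tumours. Their rises were thus partly built in. Of 6 tested mast cell and basophil genes none passed with either single agent, and with the combination Kit rose and Mcpt8 fell. None of 4 tested erythroid genes passed in any comparison against untreated, and the haemoglobin genes were not analysed here. Of 26 tested acinar genes none passed with beta-glucan (median 2.35), 4 rose with anti-CD40 (5.19) and 7 with the combination (5.14). In this acinar list 12 genes reached a count of 10 in at most 4 untreated tumours, so differences of those genes from untreated tumours were partly built in.

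Across the 22 tumours the profiles most like each member were taken by the smallest root mean square difference between log2 profiles, each centred on its mean. S100a8 was nearest to S100a9 (0.370 log2 units), then to Alox5ap (0.801) and Cxcl12 (0.819). S100a9 was next nearest to Mmp8 (0.851) and Atp8b4 (0.962). Ly6g was nearest to Ctsg (1.12), S100a8 (1.22) and Elane (1.24). Ngp was nearest to Elane (1.07), Camp (1.27) and Ctsg (1.33), and Camp to Ngp (1.27), Mpo (1.275) and Ctsg (1.335). Retnlg was nearest to S100a9 (1.14), Cd163 (1.25) and Mmp8 (1.27). Mmp8 was nearest to C5ar1 (0.591), Tmem252 (0.602) and Bcl2a1a (0.653). Ltf and Lcn2 had no neutrophil gene among their nearest: Ltf was nearest to Zswim7 (0.684), Nos1ap (0.687) and Crocc (0.729), and Lcn2 to Prrx1 (0.531) and Gas1 (0.569). The measure favours genes of small range, so these values describe likeness within these tumours and nothing more.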

How the data were processed

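RNA was measured in 22 tumours. Per the labels' protocols, RNA came from 5 µm sections of fixed, paraffin-embedded tissue, and libraries were made from 100 ng with a QuantSeq forward kit, which reads transcript 3' ends. The submitters' processing notes name STAR, mm10 and DESeq2 without versions; the counting program, annotation and strand setting were not given in the sources used here. Overlapping, antisense and near-identical genes (Ly6g among the Ly6 family, the stefins, the trypsinogens) therefore cannot be told apart with certainty.

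The deposited values are normalized counts, a signal made by the authors by dividing each tumour's counts by a size factor. Reads were recovered by dividing by the smallest step of each tumour: 100% of 395252 values were whole within 0.001. No pair of tumours of a group agreed within sampling noise (50 pairs, lowest chi-square per degree of freedom 13.35). Of 17966 symbols 17699 matched GENCODE M21, 23 names had become dates and 2 occurred more than once. Promoter sequences are from RefSeq, where 9 of 9 members matched.

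The main test was limma 3.58.1 (R 4.3.3), two-sided, on log2(value + 1), over 4 group means and all 22 tumours, with trended and robust moderation and Benjamini-Hochberg adjustment within each contrast over the 14278 genes that reached 10 in 5 or more tumours. A fold is 2 to the power of the log2 difference on this scale, which understates changes of genes with few reads. The ± after a log2 difference is its standard error. Where a group had no reads the fold is a bound against 3 reads over that group. edgeR 4.0.16 (quasi-likelihood) on recovered reads, other pseudocounts, filters, scalings, an acinar covariate, a replicate block and leaving out each tumour were alternatives. The fit was also run on simulated data in which all genes had the same dispersion. That run does not speak for members whose values spread widely within a group. The members, lists and tests were chosen with earlier results of these data known. All 9 members are given; of other lists up to 4 genes with the smallest p in a comparison are named, and genes outside that rule were named after their values were seen. Results of some single genes are not reported here.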

Additional observations from a re-analysis of the deposited data

Results flagged for a closer look

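Of 35 sets of 1 member in 1 group that were screened for a tumour far from the others of its group, 3 were picked out, and chance picks out about 1 in 20. S100a9 stood at 848 normalized counts in untreated tumour 3, against 462 in the next highest untreated tumour. Mmp8 stood at 14.6 in anti-CD40 tumour 2, against 81.5 in the next lowest tumour of that group. Retnlg was at 0 in anti-CD40 tumour 2, against 76.1 in the next lowest. That tumour had the highest depth of the series, 21.2 M reads, and acinar genes took 33.6% of its reads; their part in its low values was not tested.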

How the results depend on the processing

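Of 1475 values of the 9 members under alternatives, 1303 kept direction and side of the threshold, 88 lost and 33 gained a call and 51 changed sign, all 51 among differences that were not called. The causes of these shifts were not tested. The combination's calls against untreated tumours for S100a8, S100a9, Ly6g, Ngp, Camp and Mmp8 held in all 21 alternatives; the S100a8 call against anti-CD40 was lost in 17 of 22.

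Rescaling to equal totals lowered the number of risen members to 2 with beta-glucan, 2 with anti-CD40, 0 for the combination against beta-glucan and 0 against anti-CD40. With equal totals outside acinar genes the last 2 counts were 1 and 0. The combination against anti-CD40 gave 3 members with a pseudocount of 8, 2 with the acinar covariate and 0 without the filter, in edgeR, with only the 2 groups fitted and without the 5 tumours over 30% acinar. Without those 5 tumours anti-CD40 raised 7 members. The fall of Ltf with anti-CD40 left a count of 0 in edgeR, with only the 2 groups and with the acinar covariate. With only the 2 groups, 1 member, Ltf, fell with beta-glucan. The replicate block left 1 member higher in the combination against beta-glucan. Leaving out 1 tumour gave 3 to 5 risen members with beta-glucan, 3 to 7 with anti-CD40 (and 0 to 1 fallen), 7 to 8 with the combination, 0 to 3 for the combination against beta-glucan and 0 to 3 against anti-CD40.

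Signs changed as follows, as log2 differences. With anti-CD40 against untreated, Lcn2 was -0.24 with equal totals and -0.029 with the acinar covariate, and Retnlg was -0.13 with equal totals and -0.24 to 1.69 with 1 tumour left out. With the combination against untreated, Ltf was -0.010 in edgeR, -0.44 with equal totals, -0.11 outside acinar genes, -0.19 with the replicate block, -0.17 with the block by column numbers and -0.077 to 0.12 with 1 tumour left out. Against beta-glucan, Lcn2 was -0.38, -0.069 and -0.098 with equal totals, outside acinar genes and with the covariate, and -0.090 to 0.23 with 1 tumour left out. In anti-CD40 against beta-glucan, S100a8 was 0.090 in edgeR, 0.20 without the 5 acinar-rich tumours and -0.74 to 0.092 with 1 left out; Ly6g was -0.18 with equal totals and -0.33 to 0.89, and Camp -0.15 to 1.38, with 1 left out. For the interaction, Ly6g was 0.34 with a pseudocount of 8; Mmp8 was 0.023, 0.063 and 0.16 with a pseudocount of 8, equal totals and quantile scaling, and 0.027 with the block by column numbers; Retnlg was -0.82 in edgeR and -0.35 without the 5 tumours. With 1 tumour left out Lcn2 was -0.44 to 0.022, Mmp8 -0.53 to 0.25 and Retnlg -0.64 to 1.29.

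Equal totals moved the median log2 difference of all genes to -0.56 with anti-CD40, -0.45 with the combination, -0.48 for the combination against beta-glucan, 0.13 against anti-CD40 and -0.64 for anti-CD40 against beta-glucan. The share of higher among called genes then was 93.7% with beta-glucan (79.4% in the values reported), 22.4% with anti-CD40 (59.3%), 33.3% with the combination (53.6%), 11.2% for the combination against beta-glucan (46.0%), 62.5% against anti-CD40 (44.3%) and 44.1% for anti-CD40 against beta-glucan (76.7%). Outside acinar genes the last 3 were 28.3%, 55.1% and 64.7%.

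Replicate numbers showed little pairing of the tumours. Over 30 same-number pairs the correlation of deviations was -0.271 to 0.338 (median 0.0283), with 8 pairs over 0.1. Of 22 tumours 5 correlated best with their own number. Such weak correlations cannot exclude that tumours of the same number shared a batch. The tumour called combination 5 has number 5 in its title and 6 in its description and column name. With the column numbers, a choice made after seeing the data, the 30 pairs gave the same range and median, 4 of 22 correlated best with their own number, and the replicate block gave 2 members higher in the combination against beta-glucan and 2 against anti-CD40. With so few Ly6g reads, and none untreated, its fold is known only as a bound.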
